A study of Mus musculus with 48 samples.

Results

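Old mice whose microglia had been removed and allowed to return were compared with old mice that kept theirs. The samples were 16 libraries of sorted brain microglia, out of 48 in the series. Of these, 8 came from C57BL/6 wild type mice aged 23 months that received a Csf1r inhibitor for 5 days and then had 7 days to recover, and are called repopulated here. The other 8 came from vehicle mice of the same strain, genotype and age, and are called old. All mice were male, and members were taken by their titles. Cells were taken from dissociated brain by FACS as Cd11b+ and Cd45+, with no Cd45 level given, and polyA RNA was sequenced. A further 8 libraries of vehicle microglia from mice aged 3 months (young), and 16 of whole spinal cord from repopulated and old mice, serve only as points of reference.

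Microglia are the resident macrophages of the brain and depend on signals through the receptor Csf1r. Blocking that receptor kills most of them, and after the drug is withdrawn the niche is refilled, in large part by division of surviving cells. The Cd11b and Cd45 gate also admits border-associated macrophages of the meninges and perivascular spaces, monocytes and neutrophils. In RNA from a sorted pool, fewer cells of a type and less RNA per cell cannot be told apart. The labels do not state whether each library is a separate mouse, and the spread behind each p-value may then be technical.

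The libraries held 18741936 to 27755121 counts in the old group and 23808223 to 31414974 in the repopulated group. Microglial identity was checked first. The 30 homeostatic microglial genes took 8.12 to 9.29% of the counts of old libraries and 6.55 to 8.66% of those of repopulated libraries. Markers of other cell types were present at far lower shares, none of the 15 lists exceeding 1.12% in an old library or 0.480% in a repopulated one. Neutrophil markers were the highest of these, at 0.302 to 1.12% in old and 0.166 to 0.480% in repopulated libraries. T cell markers took at most 0.00500% and 0.00392%, and the T cell receptor subunits Cd3d, Cd3e and Cd3g were too low to be tested. No microglial library was at zero for a whole list, and among the markers only Tagln, of smooth muscle, had no read in all 16. Replicates 1 and 5 of the repopulated group stood apart from the other 6. They had the lowest homeostatic shares, 6.61 and 6.55%, so a list's counts are also given without them where its rises or falls moved by over 1.5 times.

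Levels are given as CPM, counts scaled to library size after TMM scaling, as mean ± SD of 8 libraries per group unless stated, and changes as log2 repopulated minus old ± SE. A gene rose or fell when its adjusted p was under 0.05 in edgeR's quasi-likelihood test with Benjamini-Hochberg adjustment over 14382 genes. By that rule 1301 genes rose, 9.05% of those tested, and 1035 fell, 7.2%. Falls were larger than rises. At least a 2-fold change was seen in 352 genes that fell (2.45%) and 98 that rose (0.681%). The groups of 8 did not overlap at all for 301 genes higher in the repopulated libraries (2.09%) and for 139 lower ones (0.966%). The median change of all genes tested was -0.04. Scaling to total counts moved that median to -0.21 and the calls to 592 rises and 2779 falls. That shift touches every list below, so both counts are given where a list's rises or falls moved by over 1.5 times or their balance by over 10 percentage points. No gene called under TMM was called in the opposite direction under total counts.

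**Figure D1:**
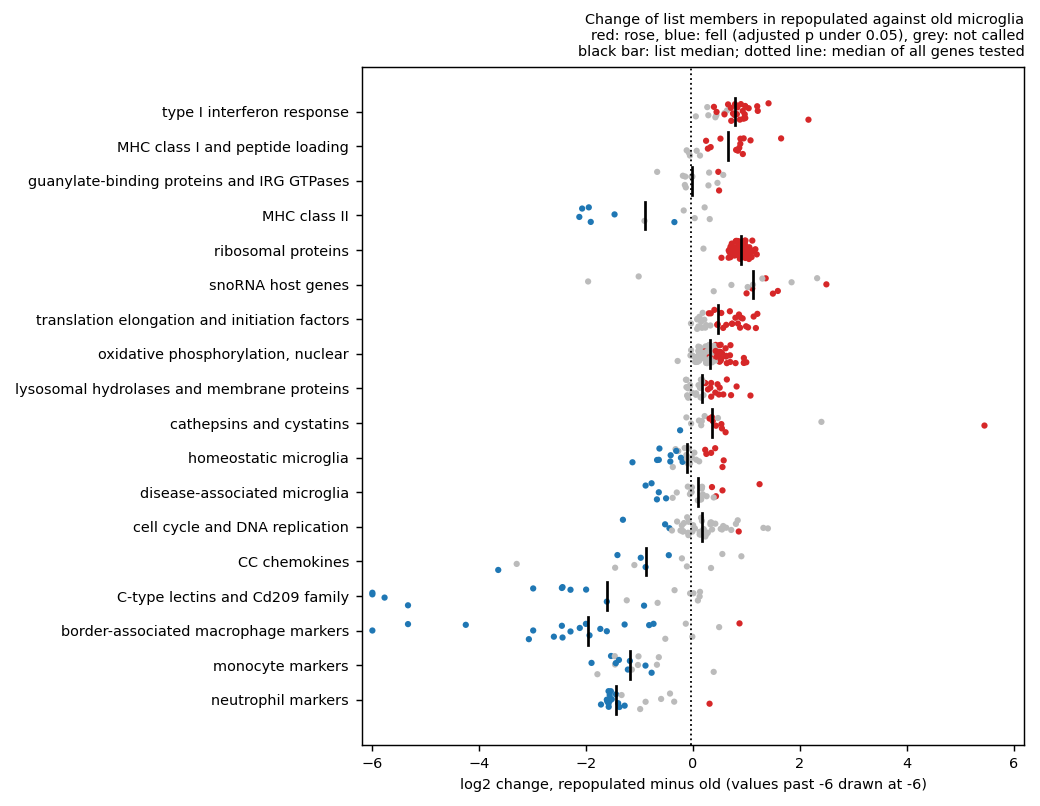
Each point is 1 tested gene of a list (rows), placed by its log2 change in repopulated against old microglia (x axis); red points rose, blue fell, grey were not called, and black bars are list medians. Ribosomal proteins lie tightly around 0.89, while border-associated macrophage markers spread from -6 (values past it are drawn there) to 0.87.

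The most uniform change was in the protein synthesis machinery. Of 79 cytosolic ribosomal protein genes tested, 78 rose and none fell, with a list median of 0.89, and in 73 of them the groups did not overlap. Rises ran from 0.53 for Rps21 to 1.19 for Rpl32. Rpl32, of the large subunit, was at 218 to 553 CPM (median 401) in old libraries and 747 to 1186 CPM (median 878) in repopulated ones, a change of 1.19 ± 0.13 (adjusted p 4.51e-08). Every repopulated library was therefore above every old one. The exception was Rplp1, a stalk protein, at 1103 ± 301 against 1262 ± 89.8 CPM, whose change of 0.19 ± 0.13 did not pass (adjusted p 0.327). The count of rises was also 78 under total-count scaling and without repopulated replicates 1 and 5. As a share of all counts, the ribosomal genes rose from 3.54% (2.17 to 4.73) to 5.76% (5.38 to 6.52; two-sided exact permutation p = 0.000155, the smallest possible with 8 against 8, and 0.000777 adjusted over 25 lists), and young libraries held at most 2.85%. Ribosomal protein genes have many processed copies, and how reads shared between copies were counted is not given in the sources used here.

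Noncoding hosts of small nucleolar RNAs, the guides of ribosomal RNA modification, moved with them. The largest rise was in Zfas1, at 8.10 to 17.6 CPM (median 11.8) in old and 44.7 to 99.00 CPM (median 69.6) in repopulated libraries, or 2.495 ± 0.18 (adjusted p 8.49e-11). The lowest repopulated library was above the highest old one. Zfas1 lies antisense to Znfx1, and the library kit does not mark strand, so reads of the pair cannot be told apart where they overlap. Znfx1 itself, whose gene was followed for that reason after its values were seen, rose by 0.51 ± 0.07. Gas5 rose from 50.1 ± 10.1 to 108 ± 20.2 CPM, and Snhg8, Snhg12, Snhg6 and Epb41l4aos rose too, making 6 of 15 hosts with none falling and a list median of 1.12.

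Translation factors followed, with 22 of 35 rising and none falling (median 0.46; 18 rose and 1 fell under total counts). Eef1a1, which brings aminoacyl-tRNA to the ribosome, went from 5139 to 8900.4 CPM (median 7428) to 11336 to 15919 CPM (median 13739), by 0.89 ± 0.09 (adjusted p 2.20e-08). Again the groups did not overlap. Eef2, the translocase, rose by 0.99 ± 0.07, Eif3f, a subunit of the initiation complex, by 1.18 ± 0.09, and the poly(A)-binding protein Pabpc1 by 0.93 ± 0.07. Npm1, the nucleolar chaperone of ribosome assembly, rose from 191 ± 30.1 to 439.4 ± 115 CPM. The wider list of ribosome biogenesis and Myc genes was split, 5 rising and 4 falling of 21 (3 and 5 under total counts, 3 and 3 without repopulated replicates 1 and 5). Mycl, a Myc paralogue, rose from 15.2 ± 3.44 to 30.4 ± 4.09 CPM, beside a young level of 29.4 ± 3.27 CPM, whereas Myc fell by 0.60 on the log2 scale, from 43.6 ± 8.54 to 28.9 ± 7.37 CPM (adjusted p 0.00434).

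Some of these genes have a run of pyrimidines at or near the annotated start. A run of pyrimidines at the start of the RNA is the element through which translation of ribosomal protein mRNAs is known to be controlled. Start windows of 45 bases, 25 before and 20 from the annotated start (RefSeq, GRCm38.p6), are shown for 4 ribosomal genes, 1 translation factor and 1 snoRNA host. Capitals mark a run of at least 7 C or T bases, on the strand with the sequence of the RNA, that begins within 5 bases of the start.
Rps18: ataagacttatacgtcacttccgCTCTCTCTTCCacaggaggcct
Rps21: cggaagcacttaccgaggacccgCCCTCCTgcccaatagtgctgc
Rpl28: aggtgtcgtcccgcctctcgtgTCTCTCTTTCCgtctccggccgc
Rpl35a: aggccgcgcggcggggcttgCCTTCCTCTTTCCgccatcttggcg
Eef1a1: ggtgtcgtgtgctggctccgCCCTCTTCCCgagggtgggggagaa
Snhg12: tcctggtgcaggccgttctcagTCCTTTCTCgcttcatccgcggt
They lie at chr17:33955646-33955690 (minus strand), chr2:180257354-180257398 (plus), chr7:4792940-4792984 (plus), chr16:33056457-33056501 (plus), chr9:78481705-78481749 (minus) and chr4:132308653-132308697 (plus). For the counts, it was enough that at least 7 C or T bases in a row could be read from a point within 5 bases of the start. Some counted runs therefore began further upstream than the printed ones. A run counted in this way was found in 24 of the 58 ribosomal protein genes with a window (41.4%). It was found in 4 of 12 snoRNA hosts (33.3%) and in 4 of 26 translation factors (15.4%). Of all 11333 tested genes with a window, 10.8% held one, as did 160 of 1065 genes that rose and 92 of 816 that fell. Rps21, with the smallest rise of its family, has the run as well.

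Energy metabolism moved less. Nuclear-encoded subunits of oxidative phosphorylation rose in 30 of 76 cases with no fall (median 0.31); the count was 17 under total counts and 16 without repopulated replicates 1 and 5. Cox7a2l rose from 181 ± 50.9 to 361 ± 35.1 CPM, by 0.997 ± 0.13. Cox4i1, a subunit of complex IV, rose by 0.80 ± 0.11. Of 11 genes encoded in mitochondrial DNA 3 rose, COX1 from 9009 ± 1303 to 14640.0 ± 2815 CPM (0.70 ± 0.11), ND4 by 0.41 ± 0.09 and CYTB by 0.37 ± 0.10. Glycolysis was divided, 7 genes rising and 5 falling of 19, or 4 and 5 under total counts. Among stress genes, Hspe1, the mitochondrial co-chaperonin, rose by 1.04 ± 0.13, while Xbp1, a regulator of the endoplasmic reticulum response, fell by 0.59 on the log2 scale (251 ± 22.1 to 167 ± 29.9 CPM). In all, 5 of that list's 23 genes rose and 5 fell (4 and 9 under total counts, 4 and 3 without repopulated replicates 1 and 5).

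Interferon-stimulated genes were higher in repopulated microglia. Type I interferon acts through a complex that includes Stat2 and Irf9 to induce antiviral effectors, among them the Ifit and Oas families. Of 31 such genes tested, 24 rose and none fell, with a median of 0.79 beside -0.04 for all genes, and in 14 the groups did not overlap. Under total-count scaling 20 rose, and without repopulated replicates 1 and 5 the count was 19.

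Ifi27l2a, an interferon-induced protein of unclear role, was at 27.3 to 81.2 CPM (median 46.6) in old and 119 to 488 CPM (median 183) in repopulated libraries, a change of 2.16 ± 0.26 (adjusted p 3.21e-07). The groups did not overlap, and repopulated replicates 1 and 5 were the highest of all 16. Irf7, the factor that amplifies interferon production, went from 39.0 to 86.8 CPM (median 45.2) to 88.1 to 212 CPM (median 109.9), by 1.41 ± 0.20 (adjusted p 4.75e-06). Its highest old library stayed just below its lowest repopulated one. Stat2, of that complex, rose by 0.69 ± 0.11, its partner Irf9 by 0.30 ± 0.08, and the viral RNA sensor Oas1a from 29.8 ± 8.00 to 68.4 ± 18.5 CPM. Ifit3, which binds viral RNA with its partners, rose by 0.79 ± 0.16 from 41.7 to 70.2 CPM (median 48.2) to 66.2 to 116 CPM (median 86.6), with some overlap. The tethering protein Bst2 rose by 0.83 ± 0.12, and Cxcl10, an interferon-induced chemokine, from 12.9 ± 5.48 to 24.8 ± 5.54 CPM (adjusted p 0.0386). Young libraries were lower than both old groups for these genes: Ifi27l2a was at 11.04 ± 3.998 and Irf7 at 14.6 ± 4.92 CPM there.

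Receptors and signalling genes of the pathway followed in part. In the list of 20 receptors, kinases, STATs and IRFs, 6 rose (among them Irf7, Stat2, Ifngr2, Irf9 and Tyk2) and none fell, with a median of 0.02; under total counts 4 rose and 8 fell. Among 14 guanylate-binding proteins and immunity-related GTPases, targets shared with interferon gamma, Irgm1 rose from 65.1 ± 5.09 to 90.4 ± 10.3 CPM and Gbp3 by 0.49 ± 0.12, none fell, and the list median was -0.02. Under total counts 2 rose and 2 fell, and without repopulated replicates 1 and 5 1 rose. Igtp stood at 82.9 ± 7.76 and 81.2 ± 7.41 CPM, Irgm2 at 94.5 ± 9.57 and 82.8 ± 10.1 CPM, and neither passed. The Ifitm and Schlafen families were mixed, with 5 of 10 rising and 2 falling, or 4 and 4 under total counts. Slfn5 rose by 1.01 ± 0.18 and Ifitm3, which blocks viral entry, by 0.61 ± 0.20, while Ifitm6 fell by 1.90 on the log2 scale, from 44.2 ± 22.4 to 11.8 ± 4.17 CPM, and Ifitm2 fell by 1.06.

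Members of both groups of targets carry interferon response motifs near their starts, which is why their upstream sequence is set side by side. Only genes that hold the motif are printed, so they do not stand for their lists. The 170 bases before the annotated start are shown (RefSeq, GRCm38.p6), with the motif in capitals: GAAA, any 2 bases and GAAA again, or the reverse complement where it is on the other strand. Ifit3, Oas1a, Bst2 and B2m rose, and Igtp, Irgm2 and Gbp7 were not called.
Ifit3: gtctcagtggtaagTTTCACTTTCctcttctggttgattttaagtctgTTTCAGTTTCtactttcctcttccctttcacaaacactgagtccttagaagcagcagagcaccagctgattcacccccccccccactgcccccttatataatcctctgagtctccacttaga
Oas1a: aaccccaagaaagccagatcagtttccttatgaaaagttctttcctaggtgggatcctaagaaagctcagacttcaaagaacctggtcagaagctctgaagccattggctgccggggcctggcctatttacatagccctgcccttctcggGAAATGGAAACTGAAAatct
Bst2: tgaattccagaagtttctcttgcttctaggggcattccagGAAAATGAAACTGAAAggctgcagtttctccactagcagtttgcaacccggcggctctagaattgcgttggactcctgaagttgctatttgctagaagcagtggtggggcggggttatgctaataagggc
B2m: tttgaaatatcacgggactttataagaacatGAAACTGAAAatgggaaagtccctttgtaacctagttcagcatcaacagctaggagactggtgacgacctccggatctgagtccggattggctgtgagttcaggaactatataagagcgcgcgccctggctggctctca
Igtp: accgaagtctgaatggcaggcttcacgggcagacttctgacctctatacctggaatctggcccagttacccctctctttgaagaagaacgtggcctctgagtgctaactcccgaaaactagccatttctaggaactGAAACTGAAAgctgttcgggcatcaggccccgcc
Irgm2: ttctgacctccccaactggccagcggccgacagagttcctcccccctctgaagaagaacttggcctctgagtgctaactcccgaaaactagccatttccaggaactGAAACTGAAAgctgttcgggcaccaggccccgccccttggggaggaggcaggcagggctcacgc
Gbp7: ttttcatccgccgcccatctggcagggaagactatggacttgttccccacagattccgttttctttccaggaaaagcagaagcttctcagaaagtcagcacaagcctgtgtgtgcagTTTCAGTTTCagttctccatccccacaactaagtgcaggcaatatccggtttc
Their positions are chr19:34583359-34583528 (plus strand), chr5:120907526-120907695 (minus), chr8:71537473-71537642 (minus), chr2:122147517-122147686 (plus), chr11:58199386-58199555 (plus), chr11:58214807-58214976 (plus) and chr3:142530166-142530335 (plus). The motif was sought within 250 bases upstream, on either strand and with overlapping copies allowed. It was found in 8 of the 21 interferon-response genes with a window (38.1%) and in 9 of 9 guanylate-binding and related GTPases. Of the 14 class I and peptide loading genes with a window, B2m among them, 3 held it (21.4%). The motif was in 3.37% of all tested genes with a window, 5.45% of those that rose and 3.06% of those that fell. Of the 9 GTPases with the motif 2 rose. A match is a string of letters, and binding was not measured.

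Class I antigen presentation rose with the interferon genes. Of 18 genes for heavy chains, the light chain and peptide loading, 13 rose and none fell (median 0.66), and 9 did not overlap; under total counts 10 rose and 3 fell. H2-D1, a classical heavy chain, was at 1523 to 2336 CPM (median 1838) in old and 3549 to 5384 CPM (median 3841) in repopulated libraries, up by 1.08 ± 0.11 (adjusted p 2.30e-08). No library of the groups overlapped, and repopulated replicate 1 was highest. B2m, the common light chain, rose from 3163 ± 565 to 5660.0 ± 754 CPM, the peptide transporter Tap1 from 144 ± 20.5 to 262 ± 48.5 CPM, and the class I transactivator Nlrc5 from 17.4 ± 3.03 to 30.5 ± 3.72 CPM. The nonclassical H2-Q7 rose by 1.65 ± 0.25, although reads of the near-identical H2-Q genes may have been split between them. Tap2, Tapbp, Tapbpl, Calr and Pdia3, all of peptide loading, were not called. Of 5 subunits of the interferon-induced proteasome 2 rose, Psme1 by 0.71 ± 0.10 and Psmb8 by 0.35 ± 0.11, or 1 under total counts and 1 without repopulated replicates 1 and 5. Of 14 constitutive subunits 1 rose, and 1 fell as well under both of those alternatives.

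Class II presentation went the other way. Its genes, of antigen-presenting cells, fell in 6 of 11 cases with none rising, and the list median was -0.91; without repopulated replicates 1 and 5 6 fell and 1 rose. H2-Aa was at 660.1 to 2272 CPM (median 929) in old and 148 to 529.5 CPM (median 215) in repopulated libraries, a change of -2.13 ± 0.25 (adjusted p 2.28e-07). The groups did not overlap, although the highest old library, replicate 4, was far above the rest, as replicate 1 was among the repopulated. H2-Eb1 changed by -2.08 ± 0.24, H2-Ab1 by -1.95 ± 0.24, and the invariant chain Cd74 fell from 2069 ± 1010.5 to 549 ± 263 CPM (-1.91 ± 0.24). Ciita, their transactivator, fell from 13.6 ± 7.27 to 4.90 ± 3.28 CPM (adjusted p 0.0143). H2-DMb1, of peptide exchange, fell by 0.35 on the log2 scale, while its partner H2-DMa at 0.22 ± 0.08 did not pass. The young level of H2-Aa was 290.5 ± 88.9 and that of Cd74 644 ± 216 CPM. Border-associated macrophages and dendritic cells also carry class II. Of their markers 17 of 22 and 4 of 15 fell, as given below, with 1 rise in each list and Cd209a in both. Dendritic cell markers took 0.132% of counts in young, 0.0867% in old and 0.0550% in repopulated libraries. Class II genes took 0.196, 0.559 and 0.172%. The part of these cells in the class II result was not tested.

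**Figure D2:**
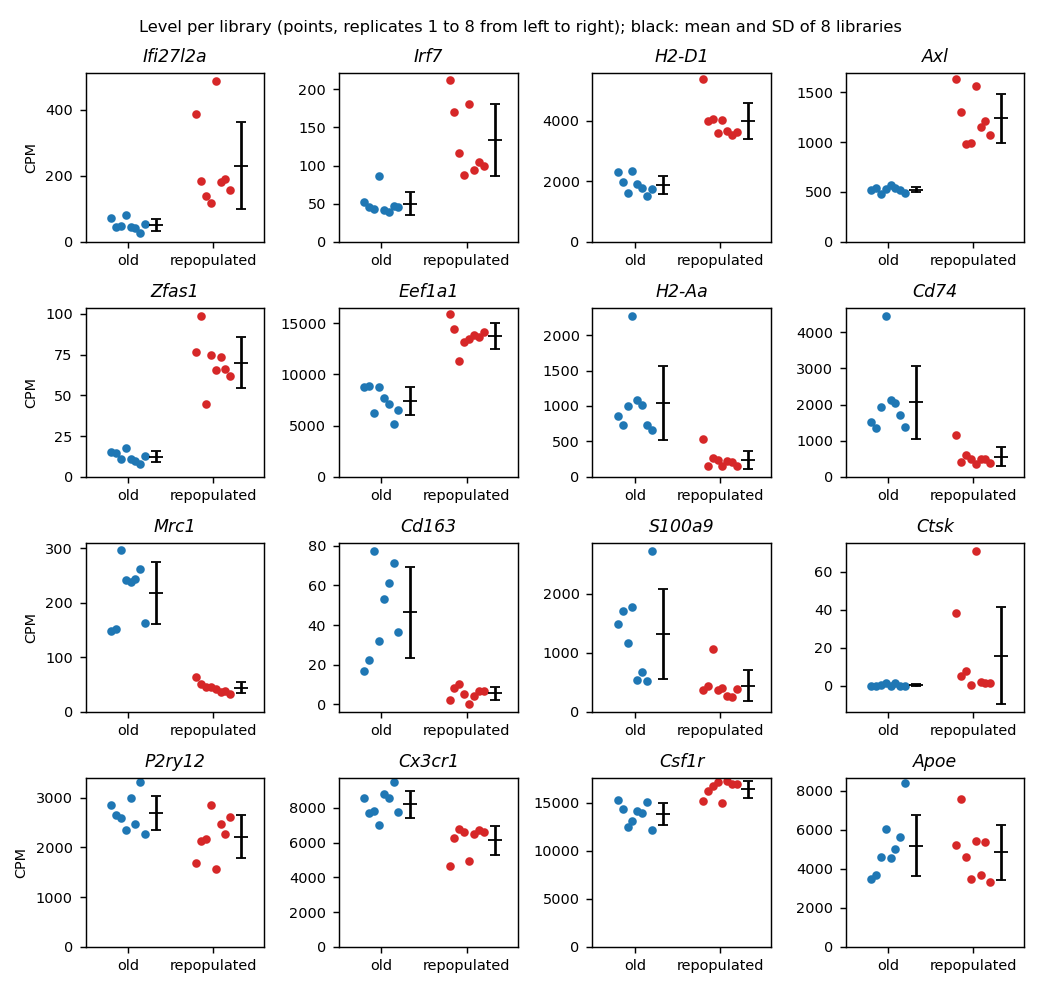
Points are single libraries (replicates 1 to 8 from left to right) and black marks the mean and SD of 8, on a linear CPM axis for 16 genes in old (blue) and repopulated (red) microglia. Zfas1, Eef1a1, Axl, H2-D1 and Mrc1 show no overlap between the groups, whereas the Ctsk mean rests on repopulated replicates 1 and 5, at 38.1 and 71.1 CPM.

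Axl, a receptor for dying cells that interferon also induces, was among the clearest single rises. It was at 482 to 567 CPM (median 525) in old and 976 to 1632 CPM (median 1183) in repopulated libraries, up by 1.24 ± 0.10 (adjusted p 3.44e-10), against 69.8 ± 11.5 CPM in young ones. Old libraries were tightly grouped and all lay below the repopulated range. The related receptor Mertk fell by 0.23 on the log2 scale (adjusted p 0.0397). Lgals3bp, a secreted galectin-3 partner, rose from 1009.9 ± 164 to 2523 ± 214 CPM, or 1.32 ± 0.11. Fcgr4, an activating Fc receptor, rose by 1.01 ± 0.15 and Treml2 by 1.03 ± 0.10, both without overlap. Trem1, an amplifier of inflammation, fell from 8.63 ± 5.93 to 3.05 ± 1.97 CPM and Trem3 by -1.51 ± 0.33. In that family of Trem, TAM, Fc and complement receptors 9 of 24 rose and 6 fell, or 5 and 10 under total counts and 7 and 3 without repopulated replicates 1 and 5.

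Lysosomal genes rose in part. Of 35 hydrolases and membrane proteins 15 rose and none fell (median 0.17), though with total-count scaling 12 rose and 8 fell. Arsb, a sulfatase of glycosaminoglycan breakdown, was at 583 to 782 CPM (median 683) in old and 1083 to 1892 CPM (median 1413) in repopulated libraries, up by 1.07 ± 0.08 (adjusted p 9.38e-11). The groups did not overlap. Grn, the progranulin precursor of lysosomal granulins, rose from 3802 ± 504 to 6688 ± 1288 CPM, the mannosidase Man2b1 by 0.71 ± 0.10 and the galactosidase Glb1 by 0.63 ± 0.08. Of 17 cathepsins and cystatins 8 rose and 1 fell (8 and 3 under total counts, 7 and 0 without repopulated replicates 1 and 5); Ctss rose by 0.54 ± 0.07 and Ctsd from 19302 ± 1832 to 25982 ± 3143 CPM.

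Ctsk and Acp5, the collagenase and acid phosphatase of bone-resorbing cells, had the largest fitted rises, and both rested on a pair of libraries. Ctsk was at 0 to 1.41 CPM in old libraries and 0.472 to 71.1 CPM in repopulated ones, with replicates 1 and 5 at 38.1 and 71.1 CPM. Its change of 5.45 ± 1.06 (adjusted p 3.89e-04) became 3.03 (adjusted p 0.0782) without that pair. Acp5 reached 57.7 and 169.1 CPM in the same libraries, and its change of 3.57 ± 0.76 became 1.05 (adjusted p 0.299) without them. Atp6v0d2, the proton pump subunit of such cells, was at 1.26 ± 0.868 and 3.89 ± 4.88 CPM and was not called.

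Among homeostatic microglial genes, 6 of 30 rose and 9 fell, and under total counts 3 rose and 20 fell. Cx3cr1, the fractalkine receptor, fell from 7018 to 9475 CPM (median 8175) to 4661 to 6802 CPM (median 6562), by -0.42 ± 0.07 (adjusted p 8.06e-05). Its groups did not overlap. The nucleotide receptor P2ry13 fell from 2032 ± 227 to 1304 ± 235 CPM, the fructose transporter Slc2a5 by -0.67 ± 0.09 and the membrane protein Upk1b from 153 ± 20.1 to 69.7 ± 24.2 CPM. P2ry12, the ADP receptor that guides process extension, was at 2689 ± 345 and 2219 ± 435.3 CPM, just outside the threshold (adjusted p 0.0504). Tmem119 and the identity factor Sall1 changed by -0.08 ± 0.09 and -0.09 ± 0.08 and were not called. The secreted proteins Sparc and Olfml3 rose, Sparc from 4468 ± 424.2 to 6648 ± 510.2 CPM and Olfml3 from 3442 ± 327 to 4586 ± 180.3 CPM, beside young levels of 6014 ± 401 and 4612 ± 351 CPM. Tyrobp, the signalling adaptor of Trem2, rose by 0.55 ± 0.09.

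The drug's target was followed in its own right. Csf1r was at 12102 to 15255 CPM (median 14029) in old and 14905 to 17192 CPM (median 16820.0) in repopulated libraries, up by 0.25 ± 0.06 (adjusted p 0.00191), and the groups overlapped. Under total-count scaling the change was 0.083 and not called, and on the log2(TPM + 1) scale it was -0.000833, so its direction was not stable. Related cytokine receptors rose too: 5 of 8 genes in that list were called, among them Il3ra, which went from 20.3 ± 3.71 to 40.9 ± 19.1 CPM without overlap, and Csf2rb by 0.25 ± 0.07, while under total counts 1 was. The ligand Csf1 changed by -0.06 ± 0.08 and was not called. The sorting markers Itgam, encoding Cd11b, and Ptprc, encoding Cd45, rose by 0.34 ± 0.06 and 0.24 ± 0.07; Ptprc was at -0.00072 on the log2(TPM + 1) scale.

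Disease-associated genes, which microglia turn on around plaques and dying cells, went in both directions. Of 25, 4 rose (Axl, Tyrobp, Ctsd and Ctsb) and 5 fell (Ccl6, Lgals3, Gpnmb, Lpl and Lilrb4a), and under total counts 4 rose and 10 fell. Apoe, the lipid carrier, was at 3462 to 8405 CPM (median 4810.1) in old and 3330.4 to 7612 CPM (median 4909) in repopulated libraries, a change of -0.10 ± 0.16 (adjusted p 0.752). The ranges were nearly the same, against a young mean of 1310.1 CPM. Trem2 changed by -0.02 ± 0.07, Cst7 by 0.16 ± 0.15 and Spp1, osteopontin, by -0.38 ± 0.15 (adjusted p 0.0929), with none called. Lpl, the lipoprotein lipase, fell from 324 ± 42.4 to 208 ± 36.8 CPM without overlap, and Lgals3 from 125 ± 37.8 to 73.1 ± 21.4 CPM. Gpnmb fell from 46.7 ± 12.3 to 29.3 ± 6.62 CPM, near the threshold (adjusted p 0.0456), a call lost with DESeq2's Wald test and in 11 of the 16 fits that left out 1 library. Young libraries were far lower in Spp1 and Gpnmb, at 5.81 ± 1.97 and 0.874 ± 0.614 CPM, than either group.

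Microglial transcription factors changed in both directions. Of 21 in the list, Batf3 and Bhlhe41 rose, by 0.53 ± 0.19 and 0.22 ± 0.06, and Klf4, Sall3, Runx1 and Ets1 fell. Runx1, a regulator of macrophage development, went from 96.2 to 114 CPM to 69.9 to 91.2 CPM without overlap. With total-count scaling 11 of the 21 fell and none rose, and without repopulated replicates 1 and 5 1 rose and 1 fell. The TGF-beta list, whose signal maintains microglial identity, had 1 fall in 19, Nrros, or 8 under total counts.

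**Figure D3:**
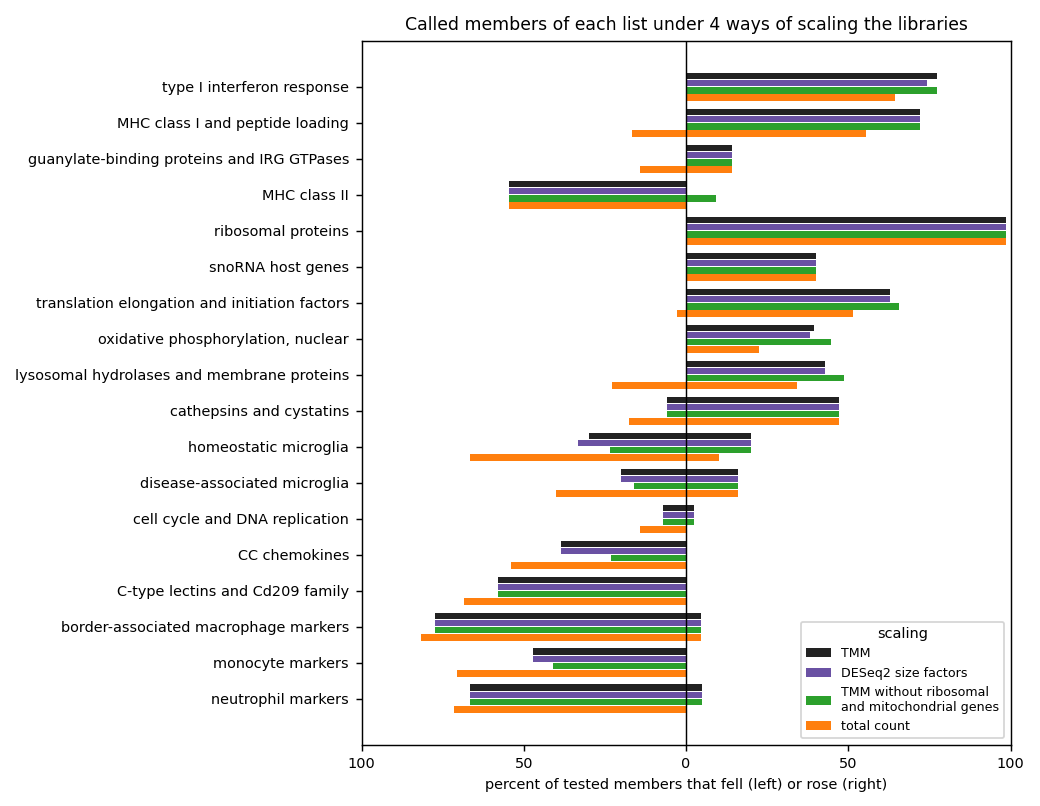
Bars give the percent of tested members of each list that rose (right of 0) or fell (left) under 4 ways of scaling the libraries. Ribosomal, interferon-response and border-associated macrophage lists keep their side under all 4, while homeostatic, lysosomal and disease-associated lists change their balance under total counts.

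After 7 days of recovery 4 of 42 cell cycle genes were called, beside 16.2% of all genes. Cdk1, the mitotic kinase, rose by 0.85 ± 0.29 (adjusted p 0.0386), and the 3 D-type cyclins fell, Ccnd2 from 15.3 ± 4.45 to 6.14 ± 1.91 CPM, Ccnd1 by -0.44 ± 0.08 and Ccnd3 by -0.52 ± 0.14. The rise of Cdk1 was not called under total counts, on the log2(TPM + 1) scale, with a replicate block, without repopulated replicates 1 and 5, or in several fits that left out 1 library, and under total counts 6 of the 42 fell. Mki67, the marker of cycling cells, was at 15.5 to 51.4 CPM (median 23.9) in old and 16.9 to 92.0 CPM (median 35.8) in repopulated libraries, a change of 0.52 ± 0.28 (adjusted p 0.220). Both groups spread widely and overlapped. The share of counts in the list was 0.142% in old and 0.132% in repopulated libraries (two-sided exact permutation p = 0.359). These means hide a split. Repopulated replicates 1 and 5, at 0.1711 and 0.1785%, lay above the old range of 0.1187 to 0.1542%. The other repopulated libraries, at 0.107 to 0.1251%, lay below every old library except old replicate 7, at 0.1187%. Some of them were above that library and so inside the old range. Of 23 p53 and senescence genes 5 rose and 1 fell. Cdkn1a, the p21 inhibitor of cycling, rose from 20.9 to 45.4 CPM (median 29.4) to 42.9 to 94.3 CPM (median 49.3), by 0.82 ± 0.16 (adjusted p 4.06e-04), with overlap. Ccng1, Bbc3 and Bax, further p53 targets, rose by 0.62 ± 0.10, 0.63 ± 0.15 and 0.50 ± 0.14, and the kinase Plk2 fell by 1.47 on the log2 scale. With total counts 4 of the 23 rose and 5 fell.

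Complement and innate sensors were mixed. Cfb, a protease of the alternative pathway, rose from 2.37 to 16.8 CPM (median 2.97) to 16.4 to 31.4 CPM (median 17.9), by 1.99 ± 0.38 (adjusted p 2.66e-04). The overlap came from old replicate 4 alone, at 16.8 CPM. C1qb and C1qc, of the recognition complex C1q, rose by 0.33 ± 0.07 and 0.32 ± 0.07, and C4b, of the classical convertase, fell from 211 ± 50.3 to 108 ± 29.96 CPM without overlap. In all 4 of 14 complement genes rose and 3 fell, or 2 and 4 under total counts. Among 22 Toll-like receptors and adaptors, 4 rose and 3 fell, or 1 and 5 under total counts. Tlr8, a sensor of single-stranded RNA, fell by 1.63 on the log2 scale, the flagellin receptor Tlr5 fell from 31.2 ± 5.22 to 13.7 ± 5.23 CPM, and the adaptor Myd88 fell by 0.37. Il1rn, the interleukin-1 receptor antagonist, fell from 14.2 to 37.0 CPM (median 26.0) to 5.78 to 13.4 CPM (median 10.1), by -1.39 ± 0.21 (adjusted p 9.90e-06), with no overlap. Il1b, the cytokine it opposes, fell from 40.8 ± 23.0 to 23.99 ± 5.46 CPM (adjusted p 0.0222), a call lost at -0.56 without old replicate 1 and at -0.59 without old replicate 4, and Tnf changed by 0.20 ± 0.26, not called.

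Chemokines of the CC class fell in 5 of 13 cases, or 3 without repopulated replicates 1 and 5, and rose in none. Ccl8, a monocyte attractant, went from 3.49 to 34.5 CPM (median 10.5) to 0 to 3.77 CPM (median 0.615), by -3.64 ± 0.66 (adjusted p 1.64e-04). Old replicate 4 was the highest by far, and the groups met only at repopulated replicate 1. Ccl6 fell from 256 ± 45.5 to 138 ± 20.8 CPM without overlap, Ccl9 by -0.45 ± 0.09, and Ccl7 and Ccl24, at -1.41 ± 0.50 and -0.98 ± 0.34, were near the threshold (adjusted p 0.0498 and 0.0463). Ccl3 and Ccl4, early products of activated microglia, changed by -0.21 ± 0.12 and -0.11 ± 0.13 and were not called. Of 13 chemokine receptors Cxcr2, Cxcr3, Ccr2, Cxcr4 and Cx3cr1 fell, and Ccrl2 rose; without repopulated replicates 1 and 5 6 fell and 2 rose.

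Matrix and surface genes held several of the largest single changes. Npnt, a matrix ligand of integrins, rose from 61.1 to 94.6 CPM (median 73.1) to 128 to 297 CPM (median 206), by 1.48 ± 0.12 (adjusted p 3.44e-10), and no library overlapped. St8sia1, the synthase of ganglioside GD3, rose from 5.78 ± 2.92 to 22.6 ± 7.43 CPM, the protease Htra3 by 1.84 ± 0.21 and the gelatinase Mmp2 from 70.8 ± 10.7 to 144 ± 12.3 CPM. The macrophage elastase Mmp12 fell from 27.9 to 50.2 CPM (median 35.9) to 1.13 to 14.2 CPM (median 6.12), by -2.42 ± 0.33, also without overlap. Mmp8 and Mmp9, which neutrophils store in granules, changed by -1.52 ± 0.27 and -1.40 ± 0.22. Metalloproteinases thus had 4 rises and 5 falls in 15. Pde2a, a phosphodiesterase of cyclic nucleotides chosen after its values were seen, fell from 180.5 ± 16.9 to 47.9 ± 19.4 CPM, and the secreted Angptl7 changed by -2.41 ± 0.35. Cholesterol synthesis genes fell in 3 of 22 cases, or 10 under total counts.

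The deepest falls were in markers of border-associated macrophages. Of 22 such genes 17 fell and 1 rose, with a median of -1.97, and 13 fell without overlap; the counts were the same without repopulated replicates 1 and 5. Mrc1, the mannose receptor CD206, was at 148 to 296 CPM (median 240.1) in old and 33.2 to 63.0 CPM (median 43.6) in repopulated libraries, a change of -2.29 ± 0.19 (adjusted p 5.43e-10). All old libraries lay above all repopulated ones. Cd163, the haemoglobin scavenger receptor, fell from 16.7 to 77.4 CPM (median 44.8) to 0.134 to 10.5 CPM (median 5.93), by -3.07 ± 0.39. Lyve1, the hyaluronan receptor, fell by 2.12 on the log2 scale, the transglutaminase F13a1 from 119.9 ± 37.0 to 29.8 ± 15.8 CPM and the phospholipase Pla2g2d changed by -4.25 ± 0.60. Siglec1, Stab1, Ednrb and Gas6 were not called, and Igfbp4, a binder of insulin-like growth factors, rose from 111 ± 10.1 to 204 ± 8.87 CPM. Young libraries held 138 ± 52.0 CPM of Mrc1 and 25.1 ± 9.61 CPM of Cd163, both between the old and repopulated means.

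C-type lectins, several of them carried by the same cells, fell in 11 of 19 cases with none rising (median -1.61). The 2 lists share members, so these falls are in part the same ones. Mrc1, Cd209f, Cd209a, Mgl2 and Clec10a are among those counted in both. Cd209f, a pathogen receptor of the DC-SIGN family, went from 6.74 to 20.7 CPM to 0 to 0.972 CPM, by -5.33 ± 0.55 (adjusted p 2.33e-08), and did not overlap. Cd209a fell from 30.99 ± 16.3 to 3.88 ± 2.85 CPM, and Mgl2 and Clec10a, galactose-type lectins, changed by -2.45 ± 0.31 and -2.44 ± 0.45. Cd209d had 237 reads in the old libraries and none in the repopulated ones, so with a floor of 3 reads over the group (0.0151 CPM) it was at least 75.3-fold lower. The Cd209 genes are close relatives, and reads shared between them may have been split. Clec7a, the beta-glucan receptor dectin-1, at 0.09 ± 0.10, was not called.

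Markers of blood-borne cells fell as well. Neutrophil markers fell in 14 of 21 cases and rose in 1, Csf3r, which microglia express too; under total counts 15 fell and none rose. The calgranulin S100a9 was at 523 to 2734 CPM (median 1324) in old and 243 to 1065 CPM (median 383) in repopulated libraries, a change of -1.58 ± 0.32 (adjusted p 6.05e-04). The groups overlapped, with repopulated replicate 3 the highest of its group. The granule genes Ngp and Ltf changed by -1.58 ± 0.32 and -1.58 ± 0.29, and Lcn2 fell from 367 ± 187 to 121 ± 56.8 CPM. Of 17 monocyte markers 8 fell and none rose, Ly6c2 from 44.9 ± 22.9 to 19.3 ± 8.24 CPM and Chil3 by -1.53 ± 0.26, with Ccr2 near the threshold (adjusted p 0.0496) and not called in 12 of the 16 fits that left out 1 library. Among dendritic cell markers 4 of 15 fell and Batf3 rose (6 fell and none rose under total counts, 3 and none without repopulated replicates 1 and 5), and 2 of 11 T cell markers fell, Cd4 and Lef1.

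Brain cells other than macrophages were also detected at a low level. Mbp, of myelin, fell from 154 to 369 CPM (median 209.8) to 69.1 to 135 CPM (median 86.2), by -1.36 ± 0.16 (adjusted p 3.10e-07), and Mobp by -2.15 ± 0.37. They were the 2 of 16 oligodendrocyte and precursor markers that fell, and Cnp rose by 0.25 ± 0.08, with no rise under total counts or without repopulated replicates 1 and 5. Endothelial markers fell in 6 of 14 cases, or 3 without repopulated replicates 1 and 5, Pecam1 from 44.3 ± 11.1 to 14.6 ± 6.23 CPM. Of 11 astrocyte markers 2 fell, or 4 under total counts, and Aqp4 was at 28.1 CPM in repopulated replicate 4 alone.

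Summed over each list, the shares of counts moved as follows. The interferon list went from 0.113 to 0.184% and class I from 1.11 to 1.55%, while class II went from 0.559% (0.387 to 1.12) to 0.172% (0.124 to 0.298). Each gave a two-sided exact permutation p of 0.000155 (0.000777 adjusted over 25 lists). Border-associated macrophage markers went from 0.217 to 0.150% (p = 0.000622), monocyte markers from 0.119 to 0.0504% (p = 0.000311) and neutrophil markers from 0.597 to 0.237% (p = 0.00311), all two-sided exact permutation tests. In a summed share abundant members weigh most. That of border-associated macrophage markers fell by less than the list's median log2 change of -1.97, and it includes Igfbp4, which rose. The homeostatic share was 8.70% in old and 7.79% in repopulated libraries (exact permutation p = 0.00637, adjusted 0.0133) and 11.8% in young ones. Repopulated replicates 1 and 5, at 6.61 and 6.55%, were lowest, and the others were at 7.916 to 8.665%, overlapping the old range. With ribosomal, mitochondrial and neutrophil genes left out of the denominator, the homeostatic difference was -0.7565 percentage points (exact permutation p = 0.0284, adjusted 0.0397). Disease-associated genes, at 4.44 and 4.81%, did not pass (exact permutation p = 0.0518).

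**Figure D4:**
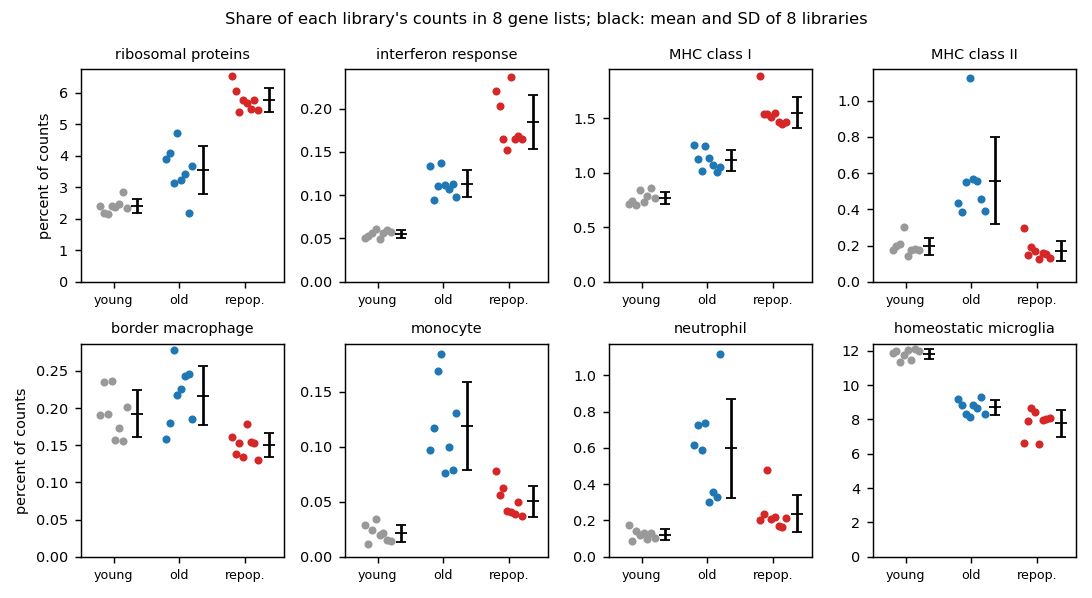
Each panel gives the percent of a library's counts in 1 gene list for 8 young (grey), 8 old (blue) and 8 repopulated (red) microglial libraries, with mean and SD in black. The ribosomal and interferon shares step up from young to old to repopulated, and the class II, monocyte and neutrophil shares peak in old.

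The same treatment was read in whole spinal cord, where few genes moved, 32 of 19110 (0.167%), and microglia are a small part of the tissue. A difference between the changes in microglia and cord was called for 2107 of 19110 genes (11.0%). Several interferon genes rose in both and others did not. Ifi27l2a changed by 1.65 ± 0.30 in cord (adjusted p 0.00235) and Irf7 by 1.64 ± 0.23 (adjusted p 3.91e-05), and their differences from microglia, 0.45 ± 0.41 and -0.28 ± 0.31, were not called. Igtp and Irgm2, not called in microglia, rose in cord by 0.90 ± 0.16 (adjusted p 0.00235) and 0.72 ± 0.14 (adjusted p 0.00575). Their differences, microglia minus cord, were -0.97 ± 0.23 (adjusted p 0.00522) and -0.95 ± 0.19 (adjusted p 0.00136). Gbp7, called in neither tissue, differed by -0.64 ± 0.20 (adjusted p 0.0341). Grn and Ctsd rose in cord by 0.59 ± 0.10 and 0.40 ± 0.09, with differences of 0.18 ± 0.14 and -0.01 ± 0.13 that did not pass. Axl was 0.08 ± 0.08 in cord and differed by 1.12 ± 0.12 (adjusted p 4.06e-09), Zfas1 was 0.44 ± 0.20 and differed by 2.02 ± 0.29 (adjusted p 7.70e-06), and Eef1a1 was 0.09 ± 0.08 and differed by 0.77 ± 0.11 (adjusted p 1.29e-05). Mrc1 was -0.02 ± 0.18 in cord, a difference of -2.32 ± 0.25 (adjusted p 1.44e-08). For H2-Aa the cord change was -0.87 ± 0.26, not called, and the difference -1.29 ± 0.36 (adjusted p 0.0176). Brain and cord differ in region and preparation as well as in cell make-up, and these cannot be told apart here.

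**Figure D5:**
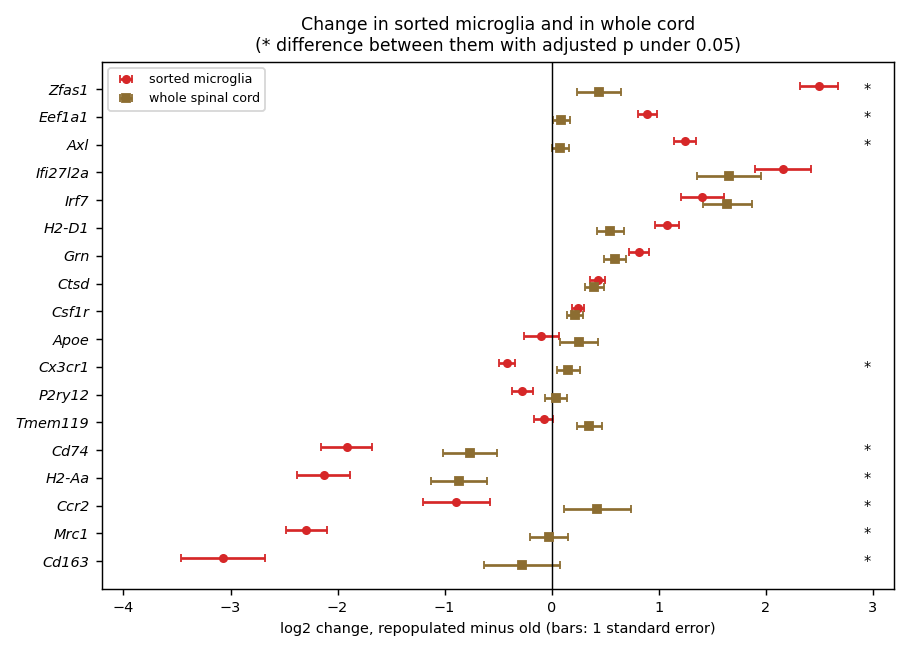
Points give the log2 change, repopulated minus old, in sorted brain microglia (red circles) and whole spinal cord (brown squares), with bars of 1 SE, and an asterisk marks a difference between them with adjusted p under 0.05. Ifi27l2a, Irf7, Grn and Ctsd sit close together in both, and Zfas1, Axl, Mrc1 and Cd163 are apart.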

How the data were processed

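PolyA RNA of FACS-sorted brain microglia was sequenced from TruSeq v2 libraries, which do not mark strand. STAR 2.5.2b and the build GRCm38.p5 are named in the submitters' processing notes, with no role, and no source used here names the counting tool. The authors deposited whole-number read counts per gene, which every main result uses, and TPM values (per gene length and library total), used only on the log2(TPM + pseudocount) scale with limma.

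Genes passing edgeR's filterByExpr in the 24 microglial libraries (14382) were fitted with 3 groups by edgeR 4.0.16 in R 4.3.3, with TMM scaling and the quasi-likelihood test, and p-values were adjusted by Benjamini-Hochberg over all of them. CPM use TMM library sizes. Cord differences are interaction contrasts over 48 libraries. Shares of counts were compared by exact permutation over 12870 splits, adjusted over 25 lists. The libraries held 18741936 to 31414974 counts. In simulated counts of this comparison for 13837 genes, 192 of them changed, the fit recovered 40.6% at a log2 change of 0.5, 56.9% at 1 and 81% at 2, and 5.79% of calls were false.

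The samples, the 60 gene lists and the rule for named genes were chosen with earlier results of these data known. Named are the 12 largest rises and falls with a mean of at least 10 CPM in either group, the 6 largest in CPM, up to 6 members called per list and all of lists with at most 14 tested, a panel of 43, and genes with a library that stood apart. Named outside that rule, after their values were seen, are Pde2a, Znfx1 and the list members Tap2, Tapbp, Tapbpl, Calr, Pdia3, Nlrc5, Rps18, Rps21, Rpl28, Rpl32, Rpl35a, Mertk, Clec7a, Lgals3, Lilrb4a, Trem1, Trem3, Gas6, Cd209d, Atp6v0d2, Siglec1, Lyve1, Stab1 and Ednrb. Values of some members are not reported here. Alternatives were DESeq2 1.42.0, voom, other scalings, filters and designs, and leaving out libraries. Replicate numbers are shared between groups but do not pair the libraries by the labels. No 2 libraries of a group were duplicates: over 84 pairs, chi-square per gene was 15.7 to 121, far above counting error. Promoter windows were available for 11333 of 14382 tested genes, matched by Entrez gene ID, and those printed were picked by symbol.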

Additional observations from a re-analysis of the deposited data

Results flagged for a closer look

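Each of these values came from a library separated from the rest of its group of 8 by a gap that Dixon's test puts past its 95% limit, in 36 of 182 group and measure pairs tested. Chance alone gives about 1 in 20. Many of these measures share libraries and genes, so they are not independent.

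Old replicate 4 was highest in its group for class II genes and for several genes of other immune cells. It had H2-Aa at 2272 CPM (the other 7 at 660.1 to 1078), Cd74 at 4461 CPM (others up to 2126) and 1.123% of counts in class II (others up to 0.5673%). The same library had Ccl8 at 34.54 CPM (others up to 13.45), Mgl2 at 66.8 CPM, Lyz2, of lysozyme, at 3372 CPM, Cfb at 16.84 CPM, Irf7 at 86.8 CPM (others up to 52.65) and Acp5 at 8.332 CPM. Its B cell markers took 0.02741% and its NK cell markers 0.001632% of counts. Other old libraries stood out once each: replicate 1 with the lowest dendritic cell share, 0.07528%, replicate 3 with a mast cell and basophil share of 0.01011%, and replicate 2 with the fewest counts, 18741936.

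Repopulated replicate 1 was highest in its group for both antigen presentation classes. It had H2-D1 at 5384 CPM (others 3549 to 4067), H2-Q7 at 169.3 CPM and 1.888% of counts in class I (others up to 1.551%), as well as H2-Aa at 529.5 CPM (others up to 264.3), Cd74 at 1166 CPM and 0.2983% in class II. It also led in Ccl8 at 3.771 CPM, Cd209a at 10.28 CPM, Mgl2 at 17.64 CPM, Ccr2 at 82.84 CPM (others up to 35.85), Rplp1 at 1449 CPM and Mbp at 135.1 CPM, and in the T cell share, 0.003925%, and NK cell share, 0.001346%. Repopulated replicate 3 led in the neutrophil genes S100a9 at 1065 CPM, S100a8 at 549.9 CPM and Ngp at 933.3 CPM, with 0.4805% of counts in neutrophil markers (others up to 0.2382%). Replicate 4 of that group had an astrocyte share of 0.06004% (others up to 0.0171%) and an oligodendrocyte share of 0.06201%, and replicate 5 had Acp5 at 169.1 CPM and Htra3 at 206.7 CPM.

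For 14 of the 42 panel genes with a value in both tissues, the change in microglia differed from that in spinal cord by the interaction test. The log2 differences, microglia minus cord, were positive for Zfas1 (2.02), Axl (1.12), Eef1a1 (0.77) and Cdkn1a (0.71). They were negative for Cd163 (-2.85), Mrc1 (-2.32), Ly6c2 (-1.47), Mbp (-1.46), Ccr2 (-1.36), H2-Aa (-1.29), Cd74 (-1.18), Lpl (-1.09), Gpnmb (-1.05) and Cx3cr1 (-0.61). Named genes outside that panel differed as well, among them Ctsk, Npnt, Arsb, Igtp and Irgm2. Sorting, region and cell make-up differ between the 2 tissues together.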

How the results depend on the processing

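Some genes named through a list, such as Cdk1, Ccl7 and Ccl24, were not in the set followed here. Of the 96 named genes followed through 29 alternatives, 78 were called, and 69 of these were called in the same direction under every one of them. The other 9 were Ctsk and Acp5 (lost with voom and without repopulated replicates 1 and 5), Gpnmb, Il1b and Ccr2 (lost in 16, 5 and 15 settings), and Csf1r, Ctsd, Itgam and Ptprc (lost on the TPM scales, Csf1r and Ptprc also under total counts). The total of 2336 calls became 4779 with limma on log2(TPM + 1) and 4643 on log2(TPM + 0.1). Rises were 495 and 485 there and 592 under total-count scaling, against 1301, and falls were 4284, 4158 and 2779, against 1035. These scalings set each library's total as the reference, and ribosomal genes take more of that total in repopulated libraries; the cause of the shift was not tested. Csf1r turned to -0.000833 on both TPM scales and Ptprc to -0.00062 (TPM + 0.1) and -0.00072 (TPM + 1), neither called. With a replicate block 1218 genes rose and 1001 fell. Same-numbered libraries correlated at -0.0897 to 0.161, 1 of 8 best with its own number, so the numbers were not read as pairs. Leaving out 1 library at a time gave 1123 to 1434 rises and 843 to 1165 falls; leaving out repopulated replicates 1 and 5, chosen after seeing the data, gave 981 and 864. The gain in disease-associated share, 0.372 percentage points, passed at 0.532 when ribosomal, mitochondrial and neutrophil genes were left out of the denominator. Shares whose call depended on a single library had these ranges of the difference in percent of counts: oxidative phosphorylation 0.0613 to 0.0933, disease-associated 0.295 to 0.461, T cell -0.0014 to -0.000734, NK cell -0.000395 to -0.00012, mast cell -0.00207 to -0.000745, astrocyte -0.0231 to -0.0153, neuron -0.000856 to -0.000569, and erythroid -0.00387 to -0.00251. At this depth, markers near 1 CPM, such as those of T and NK cells, were too sparse for small changes to be seen.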

Other observations

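Genes outside the comparisons above gave a few further values. Of 28 iron and oxidant genes 4 rose, Sod1, the ferritin chains Ftl1 and Fth1, and Slc11a1, and 4 fell (Cd163, Hp, Srxn1 and Txnrd1), or 1 and 9 under total counts and 2 and 6 without repopulated replicates 1 and 5. Integrins rose in 5 of 14 cases, Itga6, Itgb5, Itgam, Itgb1 and Itgb2, and Itgb7 fell, with 3 rising and 5 falling under total counts and 5 and 2 without repopulated replicates 1 and 5. The 18 subunits of the vacuolar proton pump had 3 rises and 3 falls, or 1 and 5 under total counts. Among 20 immediate early genes, which dissociation of tissue can induce, Klf4 fell and none rose (3 fell under total counts, and 2 rose and none fell without repopulated replicates 1 and 5), and their share of counts was 0.313% in old and 0.289% in repopulated libraries (two-sided exact permutation p = 0.523). Cp, the ferroxidase ceruloplasmin, fell from 42.6 ± 7.81 to 17.7 ± 4.77 CPM (mean ± SD, n = 8), a log2 change of -1.27 ± 0.19 with an adjusted p of 1.40e-05 in edgeR's quasi-likelihood test, and every repopulated library lay below every old one.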
